A study of Homo sapiens with 10 samples.

Results

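The genes described here encode the subunits of the receptors for GABA, glutamate and glycine: the GABA-A receptor subunits (with the rho subunits), the glycine receptor subunits, the ionotropic glutamate receptor subunits of the NMDA, kainate, AMPA and delta classes, and the metabotropic glutamate receptors. They were matched by gene symbol, and 50 of the 58216 genes in the count table matched: 19 GABA-A, 5 glycine, 7 NMDA, 5 kainate, 4 AMPA, 2 delta and 8 metabotropic genes. RNA was sequenced in bulk from TREx293 cells, a derivative of the human embryonic kidney line HEK293 with a tetracycline repressor and a site for recombining a construct into the genome. There were 5 groups with 2 libraries each: lines with a knock-in of the MN1-BEND2 fusion, of the MN1-CXXC5 fusion, of MN1 or of BEND2, and the wild-type line CTRL. The labels' protocols describe HA-tagged constructs, stable lines selected with blasticidin and hygromycin, and doxycycline as the inducer. The sources used here do not say whether CTRL cells received doxycycline, whether a line was 1 clone, or whether replicate libraries are separate cultures. The p-values therefore measure only how far paired libraries of a line differ, which may be technical spread. The study's design text asks how MN1-BEND2 acts on transcription across the genome, and both fusions are known from astroblastoma, a brain tumour.

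Fast inhibition in the brain runs through GABA-A and glycine receptors, chloride channels assembled from several subunits. Most synaptic GABA-A receptors join alpha and beta subunits with a gamma subunit, and the alpha subunit sets much of the pharmacology, including the response to benzodiazepines. Fast excitation runs through AMPA, kainate and NMDA receptors, cation channels that open on binding glutamate, and an NMDA receptor needs the GluN1 subunit, encoded by GRIN1, together with GluN2 or GluN3 subunits. Metabotropic receptors signal through G proteins. Levels are counts per 1000000 after TMM scaling (CPM), and a change is a log2 fold change ± its standard error (SE) from edgeR's quasi-likelihood test, called at a Benjamini-Hochberg adjusted p under 0.05 over 18127 genes. Levels of different genes are compared only per kilobase of exon (RPKM).

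Total counts ranged from 15914424 to 26799613 per library, so that 3 counts correspond to between 0.112 and 0.189 CPM. The inserted genes followed the labels: MN1 read 291 and 291 CPM in MN1-BEND2, 128 and 128 CPM in MN1-CXXC5, 328 and 325 CPM in MN1, 5.39 and 4.93 CPM in BEND2 and 3.91 and 3.81 CPM in CTRL libraries. BEND2 read 390 to 407 CPM in the MN1-BEND2 and BEND2 libraries and at most 0.573 CPM elsewhere, and CXXC5 read 55.2 and 61.9 CPM in MN1-CXXC5 cells against 13.6 and 13.4 CPM in CTRL cells. Embryonic kidney markers summed to between 105 and 126 CPM in every library, with SALL1 at 35.7 to 43.1 CPM and PAX8 and LHX1 at 0.325 CPM or less, but single markers moved: of the 7 tested, 2 were higher (by 0.25 and 0.67 on the log2 scale) and 2 lower (by -0.19 and -1.74) in MN1-BEND2 than in CTRL cells. Over all tested genes, 26.7% were higher and 25.2% lower in that comparison. Salivary and squamous epithelium transcripts summed to 83.9 CPM in CTRL replicate 1 and 76.0 CPM in MN1 replicate 1, against 0.516 to 3.17 CPM in the other 8 libraries. Receptor gene calls that ended without those 2 libraries are named below, and calls gained without them are not. A fit without both leaves MN1 and CTRL with 1 library each, which is assumed to vary as much as the other lines.

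The receptor genes together took nearly the same share of the RNA in every line, and the lines differed in which subunits made up that share. Summed, the 50 genes took 108 and 104 of every 1000000 counts in MN1-BEND2 libraries, 98.5 and 97.5 in MN1-CXXC5, 103 and 98.9 in MN1, 102 and 102 in BEND2, and 109 and 98.7 in CTRL libraries. Both MN1-BEND2 libraries lay above those of MN1-CXXC5, MN1 and BEND2 and within the range of CTRL, and both MN1-CXXC5 libraries lay below all others. By RPKM the glycine receptor beta subunit gene GLRB was highest in each of the 5 groups, at 5.40 in MN1-BEND2, 6.39 in MN1-CXXC5, 7.81 in MN1, 7.16 in BEND2 and 7.59 in CTRL cells. In MN1-BEND2 cells GRIN3B came next at 2.12 RPKM, with GRIK3 at 1.71, GRID1 at 1.59 and GABRA2 at 0.771. In CTRL cells GRID1 stood at 1.91 RPKM, above GRIN3B at 0.855, GRIK3 at 0.703 and GABRA2 at 0.00397.

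Of the 50 genes, 25 passed the filter on low counts and were tested: 7 GABA-A, 2 glycine, 7 NMDA, 4 kainate, 1 AMPA, 1 delta and 3 metabotropic genes. Only 11 lay over the filter level of 0.532 CPM in all 10 libraries. The level was passed in MN1-BEND2 cells alone by GABRA2, GABRB2, GRIN2A and GABRQ, and in MN1-CXXC5 cells alone by GRIA4, so these genes could enter the test only through the group where they were high. The other 25 genes held 1 to 78 counts summed over the 10 libraries and at most 11 in any library. GABRR2 had 78 summed counts, GRIA2 44, GRM3 39, GRIA3 20, GABRP 15, GLRA4 12 and GLRA1 11. Under 10 summed counts lay 17 genes, among them GABRR1, GLRA3, GABRG1, GABRA3, GRIK2, GRM5, GABRG3, GABRR3, GRIA1, GABRA4, GABRA6, GABRB1, GRM6 and GRM7. Of the gamma subunit genes GABRG1 and GABRG3 no group held more than 2 counts each.

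Transcripts of the alpha-2 and beta-2 subunits of the GABA-A receptor and of the GluN2A subunit of the NMDA receptor were near 0 in 4 of the lines and plainly detected in MN1-BEND2 cells. Against CTRL, 7 receptor genes were higher (GABRA2, GRIN2A, GABRB2, GRIN3B, GRIK3, GABRA5 and GRM8) and 5 lower (among them GRIN1, GABRD, GRIK4 and GLRB). These 12 of 25 tested genes stand beside 51.9% called among all tested genes (26.7% higher and 25.2% lower), so that as a count the receptor genes were near the background. Leaving out the 4 genes that passed the filter only through MN1-BEND2 cells, 4 of the other 21 were higher and 5 lower. Counted over all 25, GABA-A genes (7 tested) had 3 of the rises and 2 of the falls, and NMDA genes (7 tested) 2 rises and 1 fall. These rises include GABRA2, GABRB2 and GRIN2A, which passed the filter only through MN1-BEND2 cells.

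**Figure D1:**
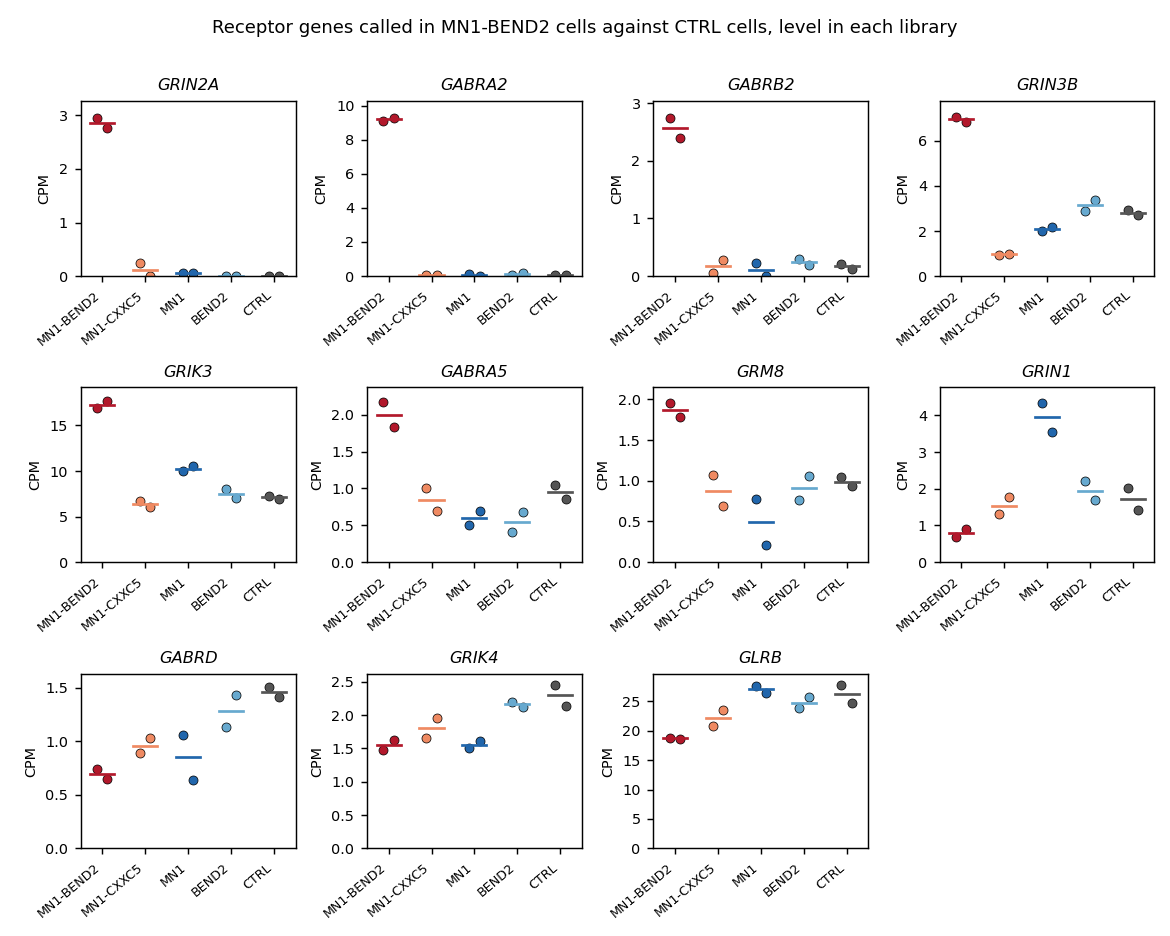
Level in CPM (vertical axes, from 0) of 11 receptor genes called in MN1-BEND2 against CTRL cells, by group along the horizontal axis. Points are the 2 libraries of a group and lines their mean; GRIN2A, GABRA2 and GABRB2 are near 0 outside MN1-BEND2 cells, and both GRIN1 points of MN1 cells lie over those of every other group.

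GABRA2 encodes the alpha-2 subunit, found in the brain at synapses of the axon initial segment and the limbic system. It had 172 and 229 counts (9.09 and 9.30 CPM) in the MN1-BEND2 libraries, 1 and 1 in MN1-CXXC5, 2 and 0 in MN1, 1 and 3 in BEND2, and 1 and 1 in CTRL libraries. Both MN1-BEND2 libraries therefore stood far over the other 8, which held at most 3 counts each. Scaled to depth, the 401 counts of MN1-BEND2 cells were 196 times the 2 counts of CTRL cells (exact 95% interval 53.9 to 1625; adjusted p = 2.9e-08), 169 times those of MN1 (46.4 to 1397), and 158 times those of MN1-CXXC5 cells (43.5 to 1310). Against BEND2 cells the fold was 92.7 (adjusted p = 5.42e-08), and on the log2 scale it was 6.54 with all libraries, 5.57 without BEND2 replicate 1 and 7.75 without BEND2 replicate 2. Both counts of MN1 cells came from replicate 1: the fitted log2 value against MN1 was 7.24 with all libraries, 6.30 without MN1 replicate 2 and, depending on the prior count, 10.5 without MN1 replicate 1. Intervals cover counting error only. In bulk RNA a few cells with much transcript and many cells with little cannot be told apart.

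GABRB2, the beta-2 subunit gene, read 2.75 and 2.40 CPM in MN1-BEND2 libraries, 0.0592 and 0.287 in MN1-CXXC5, 0.223 and 0 in MN1, 0.293 and 0.187 in BEND2, and 0.208 and 0.128 CPM in CTRL libraries. The MN1-BEND2 libraries did not overlap any other group. The log2 change against CTRL was 3.91 ± 0.51 (111 against 7 counts; adjusted p = 4.52e-05), and the gene was also called higher against MN1 (4.47 ± 0.58), BEND2 (3.31 ± 0.47) and MN1-CXXC5 cells (3.83 ± 0.54). Without MN1 replicate 1, which held all 4 counts of its group, the value against MN1 was 8.69 and depended on the prior count, and without MN1 replicate 2 it was 3.50. Against MN1-CXXC5 cells it was 3.14 without MN1-CXXC5 replicate 1 and 5.30 without MN1-CXXC5 replicate 2.

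GABRA5, the gene of the alpha-5 subunit, known for extrasynaptic receptors of the hippocampus, read 2.17 and 1.83 CPM in MN1-BEND2 libraries, 1.01 and 0.688 in MN1-CXXC5, 0.502 and 0.696 in MN1, 0.403 and 0.686 in BEND2 and 1.04 and 0.856 CPM in CTRL libraries. It was higher in MN1-BEND2 cells than in each other line, by 1.07 ± 0.27 against CTRL (adjusted p = 0.00595), 1.23 ± 0.29 against MN1-CXXC5, 1.72 ± 0.31 against MN1 and 1.94 ± 0.31 against BEND2 cells. The call against CTRL ended with DESeq2 and without CTRL replicate 2, and that against MN1-CXXC5 with DESeq2. GABRQ, the theta subunit gene, read 0.793 and 0.609 CPM in MN1-BEND2 and 0.107 to 0.401 CPM in the other libraries. It was called only against MN1 (1.47 ± 0.52; adjusted p = 0.036), a call that ended in the fit of these 2 groups alone and without MN1-BEND2 replicate 1, MN1-BEND2 replicate 2 or MN1 replicate 2 (0.83), and was 2.62 without MN1 replicate 1.

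GABRD, whose delta subunit replaces gamma in extrasynaptic receptors, read 0.740 and 0.650 CPM in MN1-BEND2 libraries against 1.51 and 1.41 CPM in CTRL libraries, without overlap. Its change was -1.07 ± 0.28 (adjusted p = 0.00674), a call that ended with DESeq2 and without MN1-BEND2 replicate 2, and that against BEND2 cells (-0.86 ± 0.29; adjusted p = 0.0292) ended in the same way and also without MN1-BEND2 replicate 1 or BEND2 replicate 2. The epsilon subunit gene GABRE, at 0.106 to 0.573 CPM over the 10 libraries, was tested and called in none of the 8 comparisons.

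Most GABA-A subunit genes lie in clusters that mix alpha, beta and gamma genes, and a gene raised in MN1-BEND2 cells could have neighbours near 0. On chromosome 4 (GRCh38, GENCODE v29), GABRG1, GABRA2, GABRA4 and GABRB1 lie between 46035769 and 47426444. GABRA2, at chr4:46248427-46475230 on the minus strand, had 401 counts in MN1-BEND2 cells, while GABRG1 had 2, GABRA4 had 1 and GABRB1 had 0. COX7B2, annotated inside the cluster, had 1 count in MN1-BEND2 and 1 in CTRL cells. Of the tested genes within 1 Mb of the cluster's ends, NIPAL1 was called higher (0.93 ± 0.06), as were ATP10D (0.41 ± 0.09), SLAIN2 (0.27 ± 0.05) and COMMD8 (0.20 ± 0.05), whereas NFXL1 (-0.28 ± 0.04) and TXK (-1.70 ± 0.48) were called lower. Most of these genes lie more than 1 Mb from GABRA2 itself. CORIN, CNGA1 and TEC were not called, and among all tested genes 51.9% were called. On chromosome 5, GABRB2, at chr5:161288429-161549044 on the minus strand, had 111 counts in MN1-BEND2 cells, against 0 for its neighbour GABRA6. Of the tested genes within 1 Mb of the ends of that cluster, C1QTNF2 was called higher (1.27 ± 0.44; adjusted p = 0.0299) and ZBED8 lower (-1.496 ± 0.083), and CCNJL, SLU7 and PTTG1 were not called.

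**Figure D2:**
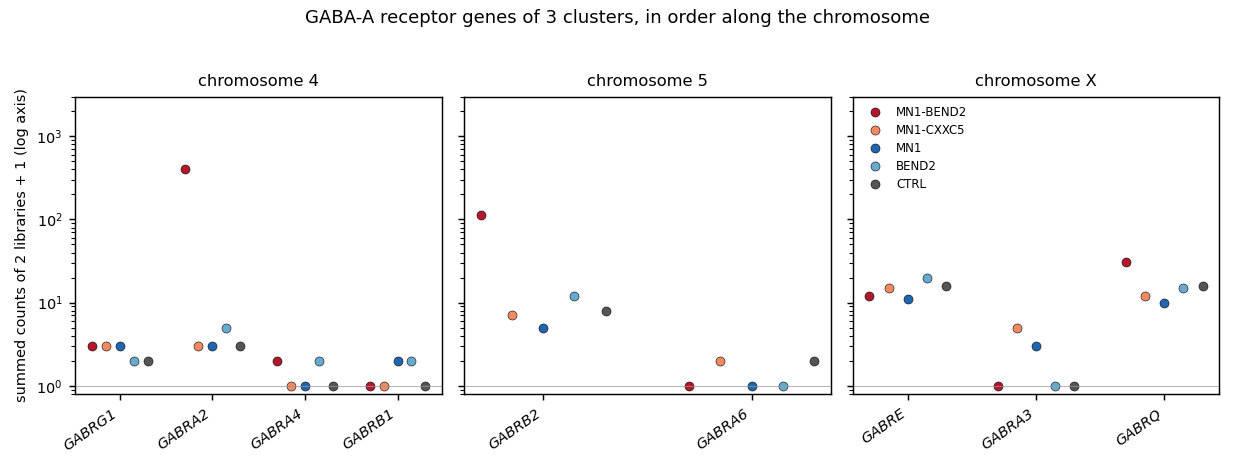
Summed counts of the 2 libraries of each group plus 1 (log axis) for GABA-A genes of clusters on chromosomes 4, 5 and X, in order along each chromosome and coloured by group. GABRA2 on chromosome 4 and GABRB2 on chromosome 5 stand out in MN1-BEND2 cells with 401 and 111 counts, and the other genes shown on those chromosomes have 0 to 2 counts in each group.

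Promoter sequences were taken from RefSeq (GRCh38.p14), which held 36 of the 50 genes. They are shown because genes raised in the same line had unlike promoter windows at the RefSeq start. For each gene 1 such start was taken, and which start these cells use is not known. Some windows, among them those of GABRA2 (chr4:46390301-46390550) and GABRB2 (chr5:161546726-161546975), lie inside the GENCODE v29 span of the gene. In the 250 bases before the start, the number of CpG dinucleotides had a median of 11 over 27305 promoters, and the count was 23 in GABRA2, 11 in GABRB2, 29 in GRIK3, 9 in GRIN2A, 28 in GRIN3B and 32 in GRM8, the 6 matched genes that were higher in MN1-BEND2 cells. Their median was 25.5. The 2 matched genes that were lower, GLRB and GRIK4, had 28 and 44, and the 10 matched genes tested and not called had a median of 17. A high count was therefore not particular to the raised genes. GABRA4, with 1 count in MN1-BEND2 cells, had 23 CpG as GABRA2 did. The AP-1 motif TGANTCA (both strands, with N any base), found in 6.6% of all promoters, matched GRIN3B, GRM4, GABRR3 and GRM6, and the CRE core TGACGT (both strands), found in 7.42%, matched GLRB. A match describes these letters in this window only. The sequences below run 5′ to 3′ on the gene's strand, leave out bases that an annotated exon covers, and have CpG in capitals. They are GABRB2 (chr5:161546796-161546975, minus strand, 180 bases with 3 CpG), GRIK3 (chr1:37034516-37034765, minus strand, 29 CpG), the chromosome 4 cluster's GABRG1, which stayed at 0 to 2 counts (chr4:46124082-46124304, minus strand, 223 bases with 6 CpG), and GRIN2B, which was higher in MN1-CXXC5 cells (chr12:13982135-13982384, minus strand, 21 CpG).
GABRB2: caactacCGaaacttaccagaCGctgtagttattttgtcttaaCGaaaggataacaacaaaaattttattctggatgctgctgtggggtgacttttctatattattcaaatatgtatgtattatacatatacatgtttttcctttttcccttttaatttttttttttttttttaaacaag
GRIK3: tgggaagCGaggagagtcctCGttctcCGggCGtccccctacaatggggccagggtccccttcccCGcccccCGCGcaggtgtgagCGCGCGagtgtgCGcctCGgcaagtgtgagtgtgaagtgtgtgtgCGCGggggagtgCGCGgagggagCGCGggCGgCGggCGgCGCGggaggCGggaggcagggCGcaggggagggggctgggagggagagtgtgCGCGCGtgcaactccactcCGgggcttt
GABRG1: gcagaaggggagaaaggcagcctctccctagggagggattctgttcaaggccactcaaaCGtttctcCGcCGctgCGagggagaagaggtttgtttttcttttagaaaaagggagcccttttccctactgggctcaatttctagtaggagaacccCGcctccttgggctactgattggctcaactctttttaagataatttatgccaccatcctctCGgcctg
GRIN2B: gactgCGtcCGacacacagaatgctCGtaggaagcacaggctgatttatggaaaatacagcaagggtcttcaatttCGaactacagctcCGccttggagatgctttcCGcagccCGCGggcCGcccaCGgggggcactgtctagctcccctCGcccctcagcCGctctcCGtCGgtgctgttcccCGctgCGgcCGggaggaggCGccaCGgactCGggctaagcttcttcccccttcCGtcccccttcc

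The glycine receptor beta subunit, encoded by GLRB, anchors the receptor to gephyrin. GLRB read 18.7 and 18.7 CPM in MN1-BEND2 libraries, 20.7 and 23.5 in MN1-CXXC5, 27.6 and 26.4 in MN1, 23.9 and 25.7 in BEND2 and 27.8 and 24.7 CPM in CTRL libraries. The MN1-BEND2 libraries were lowest, and the change against CTRL was -0.49 ± 0.08 (adjusted p = 0.000201), held under the 20 alternatives. MN1-CXXC5 cells were also below CTRL (-0.24 ± 0.08; adjusted p = 0.0234), but this call ended with DESeq2, in the fit of 2 groups only, and without MN1-CXXC5 replicate 1, CTRL replicate 1 or the salivary libraries. GLRA2, the alpha-2 glycine subunit of the embryo, read 0.829 and 0.688 CPM in MN1-CXXC5 and 0.557 and 0.857 CPM in MN1 libraries against 0.208 and 0.385 CPM in CTRL libraries. It was called higher in both (1.30 ± 0.44, adjusted p = 0.0299; 1.21 ± 0.44, adjusted p = 0.0429). The MN1-CXXC5 call ended without either MN1-CXXC5 library, CTRL replicate 1 or the salivary libraries, and the MN1 call ended in 9 of 18 alternatives: the fits without filter and of 2 groups, and without each of MN1 replicate 2, CTRL replicate 1, both MN1-CXXC5, both BEND2 and the salivary libraries.

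Among the 7 NMDA receptor genes, GRIN2A and GRIN3B rose in MN1-BEND2 cells while GRIN1, the gene of the obligatory subunit, fell. GRIN2A, which encodes GluN2A, the subunit of mature synapses, had 56 and 68 counts (2.96 and 2.76 CPM) in MN1-BEND2 libraries, 4 and 0 in MN1-CXXC5, 1 and 1 in MN1, 0 and 0 in BEND2 and 0 and 0 in CTRL libraries. The MN1-BEND2 libraries stood apart from the 8 others. Set against 3 counts as the floor for both libraries together, GRIN2A was at least 40.4-fold higher than in CTRL cells (adjusted p = 1.41e-05) and at least 41.1-fold higher than in BEND2 cells. It was 52.1 times the level of MN1 cells (exact 95% interval 14.1 to 435) and 4.54 ± 0.55 higher on the log2 scale than in MN1-CXXC5 cells, whose 4 counts all came from replicate 1. Without that library MN1-CXXC5 held 0 counts and the fitted value was 8.87, which depends on the prior count, and without MN1-CXXC5 replicate 2 it was 3.56. GRIN2A and GABRB2 received no adjusted p from DESeq2 against CTRL, where their unadjusted p were 3.25e-07 and 1.03e-05.

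GRIN3B encodes GluN3B, a subunit that lowers calcium flux and binds glycine. It read 7.08 and 6.83 CPM in MN1-BEND2 libraries, 0.947 and 0.975 in MN1-CXXC5, 2.01 and 2.20 in MN1, 2.90 and 3.37 in BEND2, and 2.92 and 2.70 CPM in CTRL libraries. The fusions were at opposite ends, MN1-BEND2 over and MN1-CXXC5 below all other libraries. GRIN3B was 1.31 ± 0.14 higher in MN1-BEND2 than in CTRL cells (adjusted p = 9.81e-06), lower in MN1-CXXC5 than in CTRL cells (-1.54 ± 0.19; adjusted p = 4.57e-05) and 2.85 ± 0.17 higher in MN1-BEND2 than in MN1-CXXC5 cells. Its exons have 70.1% GC and share 85 bases with TMEM259 on the other strand, and the strand setting of the counts is not known. Against CTRL, TMEM259 changed by 0.39 ± 0.03 in MN1-BEND2, -0.76 ± 0.04 in MN1-CXXC5, 0.53 ± 0.03 in MN1 and 0.11 ± 0.03 in BEND2 cells. GRIN3B was not called in MN1 (-0.413 ± 0.165) or BEND2 cells (0.148 ± 0.154). With offsets for GC and length the changes against CTRL were 0.84 and -0.77, that between the fusions was 1.61, all 3 still called; the part of TMEM259 reads was not tested.

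GRIN1 read 0.687 and 0.894 CPM in MN1-BEND2 libraries, 1.30 and 1.78 in MN1-CXXC5, 4.35 and 3.53 in MN1, 2.20 and 1.69 in BEND2, and 2.03 and 1.41 CPM in CTRL libraries. Both MN1-BEND2 libraries lay below and both MN1 libraries above every other. The change was -1.08 ± 0.29 in MN1-BEND2 against CTRL cells (adjusted p = 0.00723), 1.21 ± 0.23 in MN1 against CTRL cells (adjusted p = 0.00125) and -2.29 ± 0.26 in MN1-BEND2 against MN1 cells (adjusted p = 1.75e-05). MN1-BEND2 cells were also below BEND2 cells (-1.30 ± 0.28) and MN1-CXXC5 cells (-0.94 ± 0.30), the last ended by DESeq2 and without MN1-BEND2 replicate 1 or MN1-CXXC5 replicate 2. The call against CTRL ended without MN1-BEND2 replicate 1, without CTRL replicate 1 and without the salivary libraries, whereas those of MN1 against CTRL and of MN1-BEND2 against MN1 and BEND2 held under the 20 alternatives.

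GRIN2B, the gene of GluN2B, the subunit prevalent before birth, was the NMDA gene raised in MN1-CXXC5 cells. It read 0.687 and 0.934 CPM in MN1-BEND2 libraries, 1.36 and 2.75 in MN1-CXXC5, 0.669 and 0.535 in MN1, 0.440 and 0.374 in BEND2, and 0.469 and 0.684 CPM in CTRL libraries. Both MN1-CXXC5 libraries were over all others, with a wide gap between the pair. GRIN2B was 1.81 ± 0.37 higher in MN1-CXXC5 than in CTRL cells (adjusted p = 0.0018), 1.77 ± 0.38 higher than in MN1 cells (adjusted p = 0.00208), and lower in MN1-BEND2 than in MN1-CXXC5 cells (-1.32 ± 0.35; adjusted p = 0.00603). Without MN1-CXXC5 replicate 2 the change was 1.22 against CTRL and 1.18 against MN1, both still called, and the call between the fusions ended (-0.72), as it did with DESeq2. GRIN2D read 1.22 and 1.42 CPM in MN1-BEND2 and 0.888 and 0.631 CPM in MN1-CXXC5 libraries (0.80 ± 0.32; adjusted p = 0.0479), a difference whose sign turned with GC and length offsets (-0.31). That call held in only 7 of 20 alternatives, and it ended with DESeq2, RLE size factors, no filter, the fit of 2 groups and without any 1 of the 4 libraries of the fusions. GRIN2C (0.499 to 1.28 CPM) and GRIN3A (0.237 to 0.731 CPM) were tested and not called in any comparison.

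Of the 4 tested kainate receptor genes, GRIK3, which encodes the low-affinity subunit GluK3, differed most from CTRL in MN1-BEND2 cells. It read 16.9 and 17.7 CPM in MN1-BEND2 libraries, 6.69 and 6.08 in MN1-CXXC5, 9.98 and 10.5 in MN1, 7.99 and 7.05 in BEND2, and 7.29 and 6.93 CPM in CTRL libraries. MN1-BEND2 libraries were highest, MN1 libraries next, and neither overlapped another group. Against CTRL the change was 1.28 ± 0.10 in MN1-BEND2 (adjusted p = 3.67e-07) and 0.53 ± 0.10 in MN1 cells (adjusted p = 0.00114), and MN1-BEND2 was 0.75 ± 0.09 over MN1 (adjusted p = 3.45e-05). MN1-CXXC5 cells were lower than MN1 cells (-0.69 ± 0.10; adjusted p = 0.000183). All of these held under the 20 alternatives.

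GRIK1, the GluK1 gene, read 0.529 and 0.650 CPM in MN1-BEND2 libraries, 1.18 and 1.32 in MN1-CXXC5, 1.23 and 1.71 in MN1, 0.990 and 1.498 in BEND2, and 0.885 and 0.727 CPM in CTRL libraries. MN1-BEND2 libraries were the lowest, and the change was -1.30 ± 0.31 against MN1 (adjusted p = 0.00453), -1.06 ± 0.32 against MN1-CXXC5 and -1.003 ± 0.315 against BEND2, without a call against CTRL (-0.42 ± 0.34). MN1 cells were 0.88 ± 0.29 over CTRL (adjusted p = 0.0315). Those of MN1-BEND2 cells ended with DESeq2, and each of these 4 calls ended without at least 1 library: MN1 replicate 2 for both that involve MN1, CTRL replicate 1 or CTRL replicate 2 for MN1 against CTRL, MN1-BEND2 replicate 1 or MN1-CXXC5 replicate 2 between the fusions, and MN1-BEND2 replicate 1, MN1-BEND2 replicate 2 or BEND2 replicate 2 against BEND2. GRIK1 shares 45 exon bases with BACH1 on the other strand; with the strand setting not known, whether their reads were kept apart there is not known either.

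GRIK4 and GRIK5 encode the high-affinity subunits GluK4 and GluK5. GRIK4 read 1.48 and 1.63 CPM in MN1-BEND2 libraries and 1.51 and 1.61 CPM in MN1 libraries against 2.45 and 2.14 CPM in CTRL libraries, without overlap, and fell by 0.55 ± 0.18 (adjusted p = 0.0332) and by 0.55 ± 0.19 (adjusted p = 0.0485). The call of MN1-BEND2 cells ended in 6 of 20 alternatives and that of MN1 cells in 8. DESeq2, the fit with no filter, and leaving out CTRL replicate 1 or the salivary libraries were among them in both, as were both MN1-BEND2 libraries in the first, and both MN1 libraries, CTRL replicate 2 and the fit of 2 groups in the second. GRIK5 read 2.42 and 2.68 CPM in BEND2 against 1.30 and 1.37 CPM in CTRL libraries. The other lines lay between, at 2.17 and 1.67 CPM in MN1-BEND2, 1.95 and 1.38 in MN1-CXXC5 and 2.01 and 1.77 in MN1 libraries. Against CTRL they were not called (0.503 ± 0.226, 0.312 ± 0.239 and 0.493 ± 0.232). MN1-BEND2 against BEND2 cells was not called either (-0.416 ± 0.207).

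Among the other ionotropic and metabotropic genes, the delta receptor gene GRID1, a synaptic organizer, read 9.83 and 9.02 CPM in MN1-BEND2 libraries, 9.23 and 7.34 in MN1-CXXC5, 7.69 and 7.71 in MN1, 10.9 and 9.80 in BEND2 and 11.6 and 11.1 CPM in CTRL libraries. CTRL libraries were highest. It fell by 0.45 ± 0.12 in MN1-CXXC5 (adjusted p = 0.0079) and by 0.55 ± 0.12 in MN1 cells (adjusted p = 0.00222), and without the salivary libraries both calls ended at fold changes of -0.39 (adjusted p = 0.0673) and -0.52 (adjusted p = 0.0508), the first also with DESeq2 and without MN1-CXXC5 replicate 2. The AMPA gene GRIA4 read 0.592 and 0.631 CPM in MN1-CXXC5 libraries and 0.208 to 0.406 CPM in the others, and was not called. GRM8, an inhibitory presynaptic receptor gene, read 1.96 and 1.79 CPM in MN1-BEND2 libraries, 1.07 and 0.688 in MN1-CXXC5, 0.780 and 0.214 in MN1, 0.770 and 1.06 in BEND2 and 1.04 and 0.941 CPM in CTRL libraries. MN1-BEND2 libraries were over all others, by 0.91 ± 0.34 against CTRL (adjusted p = 0.0407), a call lost with DESeq2 and without any 1 of the 4 libraries, and by 1.91 ± 0.40 against MN1 (adjusted p = 0.00193), which held at 3.08 without MN1 replicate 1 and 1.26 without MN1 replicate 2. GRM4 read 0.223 and 0.428 CPM in MN1 libraries against 0.729 and 1.28 CPM in CTRL libraries (-1.63 ± 0.51; adjusted p = 0.0228), and this ended without MN1 replicate 1, CTRL replicate 2 or the salivary libraries. MN1-BEND2 cells, at 0.899 and 1.02 CPM, were over MN1 cells (1.54 ± 0.52; adjusted p = 0.0288), a call that ended with DESeq2 and without the salivary libraries, MN1-BEND2 replicate 1, MN1-BEND2 replicate 2 or MN1 replicate 1. GRM2 (0.237 to 0.860 CPM) was not called.

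The lines with MN1-CXXC5, MN1 or BEND2 were compared with the same CTRL libraries, which these comparisons share. Of the 21 receptor genes left without the 4 that passed the filter only through MN1-BEND2 cells, 9 were called in MN1-BEND2, 6 in MN1-CXXC5, 8 in MN1 and 1 in BEND2 cells, and differences between these counts were not tested. In MN1-CXXC5 cells 3 were higher (among them GRIN2B and GLRA2) and 3 lower (GRIN3B, GRID1 and GLRB) of 25, beside 44.3% called among all tested genes (19.2% higher and 25.1% lower). In MN1 cells 4 were higher (GRIN1, GRIK3, GRIK1 and GLRA2) and 4 lower (GRID1, GRM4, GABRD and GRIK4), beside 43.0% (21.6% higher and 21.4% lower). GABRD read 1.06 and 0.643 CPM in MN1 libraries (-0.78 ± 0.28; adjusted p = 0.0413), a call that ended without MN1 replicate 2, either CTRL library, either MN1-BEND2 library or the salivary libraries, and in the fit of 2 groups. BEND2 cells had 1 gene called, GRIK5 (0.92 ± 0.22; adjusted p = 0.0165), beside 14.2% (6.71% higher and 7.46% lower). That call ended without each of the BEND2 and CTRL libraries in turn and without the salivary libraries. The counts called by DESeq2 were 6 in MN1-BEND2, 1 in MN1-CXXC5, 3 in MN1 and 0 in BEND2 cells. DESeq2 gave many of the 25 genes no adjusted p here, so its counts are over fewer genes and do not compare the lines. In BEND2 against CTRL cells GRIK5 was among those without an adjusted p (DESeq2 unadjusted p = 0.0339).

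**Figure D3:**
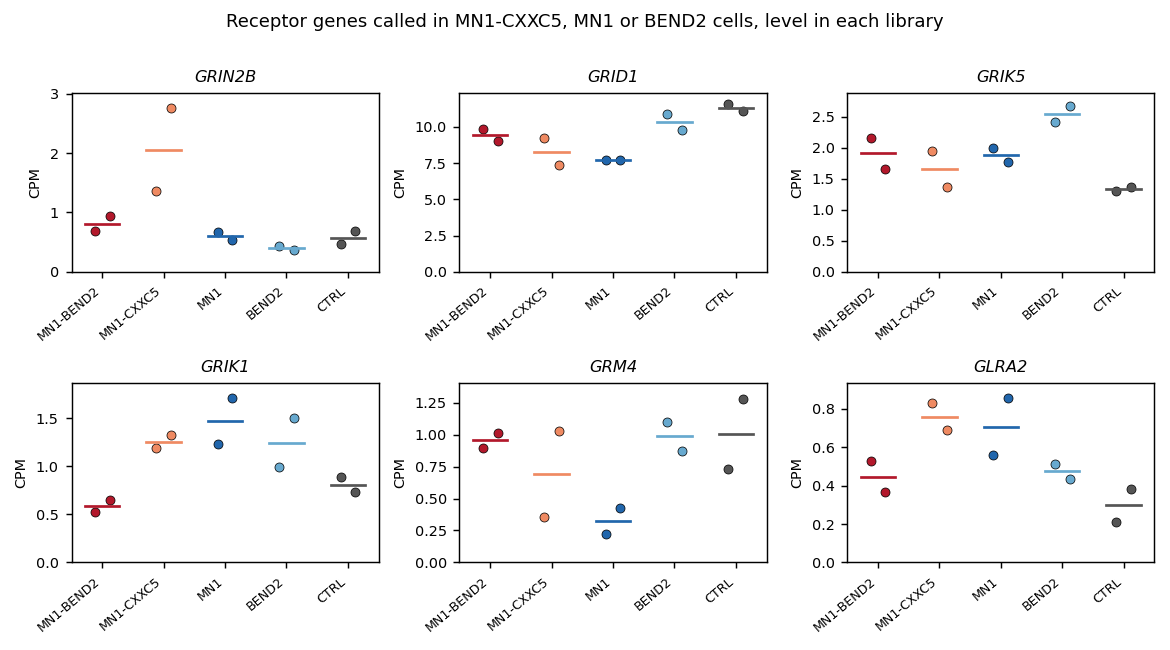
Level in CPM (vertical axes, from 0) of 6 receptor genes called against CTRL in MN1-CXXC5, MN1 or BEND2 cells and not in MN1-BEND2 cells, by group. Points are the 2 libraries of a group and lines their mean; GRIN2B is highest in MN1-CXXC5 cells at 1.36 and 2.75 CPM, GRIK5 in BEND2 cells and GRID1 in CTRL cells.

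**Figure D4:**
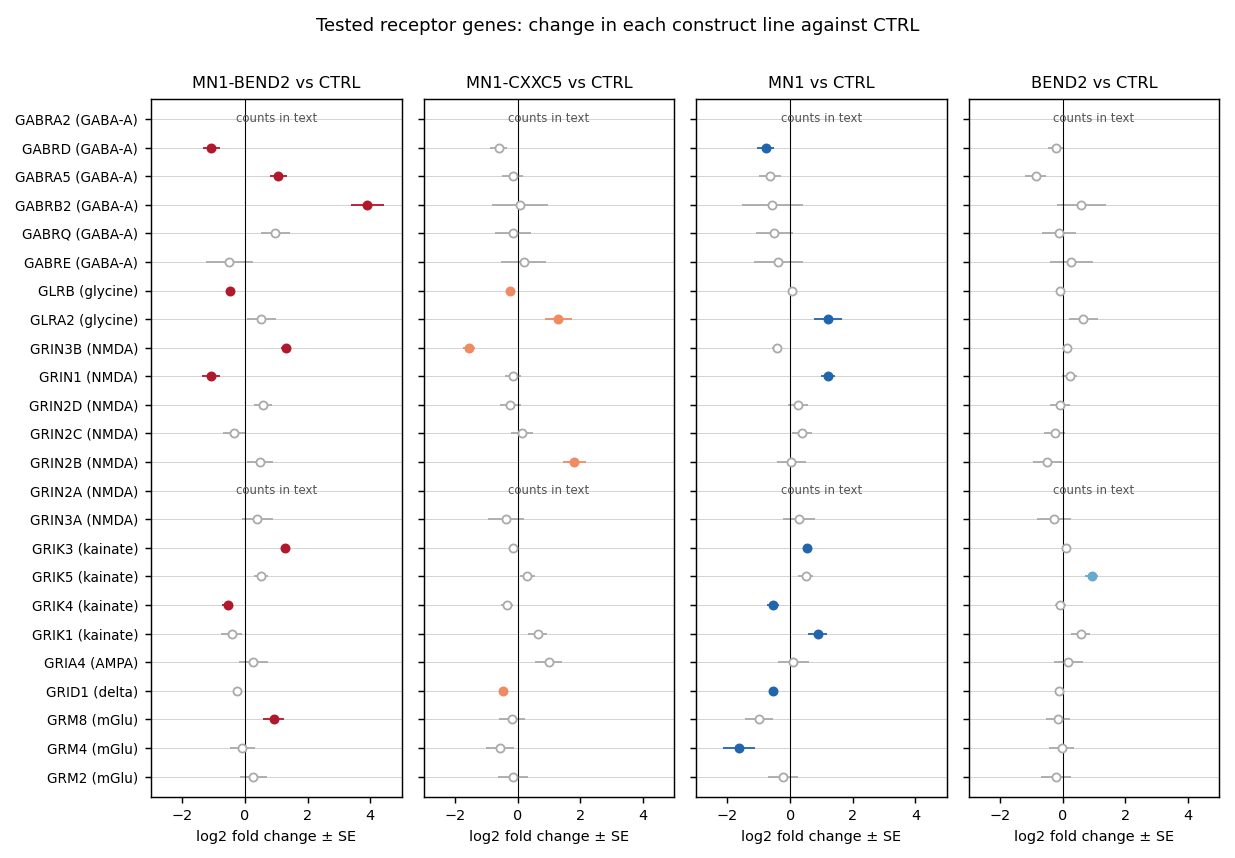
Log2 fold change ± SE against CTRL (horizontal axes) of tested receptor genes, grouped by receptor class, in each of the 4 construct lines. Filled points were called at an adjusted p under 0.05 and open points were not; GABRA2 and GRIN2A are left out because CTRL cells had 2 and 0 counts.

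Set against the partners of the fusion, MN1-BEND2 cells differed from MN1 cells in 9 higher and 4 lower of 25 receptor genes, beside 46.3% called among all tested genes (23.2% higher and 23.2% lower), and from BEND2 cells in 7 higher and 5 lower, beside 43.6% (21.7% higher and 21.9% lower). The 4 genes that passed the filter only through MN1-BEND2 cells are among these; of the other 21, MN1-BEND2 cells had 5 higher and 4 lower than MN1 cells and 4 higher and 5 lower than BEND2 cells. Among those lower than in MN1 cells were GRIN1, GRIK1 and GLRB. Against MN1-CXXC5 cells 8 were higher and 5 lower (5 and 5 of the other 21), beside 58.6% (31.1% higher and 27.5% lower), and MN1-CXXC5 cells had 2 higher and 4 lower than MN1 cells, beside 48.8% (23.3% higher and 25.5% lower). These last included GRIN2B (1.77 ± 0.38) among the higher genes, with GRIN1 (-1.35 ± 0.24), GRIN3B (-1.12 ± 0.20), GRIK3 and GLRB (-0.29 ± 0.08) lower. With GC and length offsets GRIN3B changed by -0.20 between those lines, and its call ended. The GLRB call ended with DESeq2 and without MN1-CXXC5 replicate 1, MN1 replicate 1 or the salivary libraries.

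GABA-B receptors answer GABA through G proteins, and their genes were examined as part of the same pathway. Of 8 listed GABA-B receptor and auxiliary genes 4 were tested, and in MN1-BEND2 against CTRL cells 3 were higher and 1 lower (median log2 change 1.88, against 0.01 over all tested genes, of which 26.7% were higher and 25.2% lower). KCNJ3 entered the test only through MN1-BEND2 cells, and without it 2 were higher and 1 lower of 3 (median 1.42). GABBR2, the subunit that couples to the G protein, read 35.1 and 36.0 CPM in MN1-BEND2 libraries, 12.4 and 12.9 in MN1-CXXC5, 3.85 and 3.32 in MN1, 6.78 and 5.49 in BEND2 and 6.87 and 7.19 CPM in CTRL libraries. It was thus highest in both MN1-BEND2 libraries and lowest in both MN1 libraries, with changes against CTRL of 2.34 ± 0.09 in MN1-BEND2 (adjusted p = 2.33e-09), 0.85 ± 0.10 in MN1-CXXC5 and -0.98 ± 0.13 in MN1 cells. KCTD12, which speeds desensitization of the receptor, read 460 and 445 CPM in MN1-BEND2 and 511 and 484 CPM in MN1-CXXC5 libraries against 170 and 169 CPM in CTRL libraries (1.42 ± 0.04 and 1.56 ± 0.04). Smaller rises of KCTD12 were called in MN1 (0.232 ± 0.036) and BEND2 cells (0.450 ± 0.035). KCNJ3, a potassium channel that the receptor opens, read 0.793 and 1.22 CPM in MN1-BEND2 libraries and at most 0.125 CPM in the other libraries (3.36 ± 0.56 against CTRL). All 3 genes were called in MN1-BEND2 against CTRL cells under each alternative that gave an adjusted p.

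**Figure D5:**
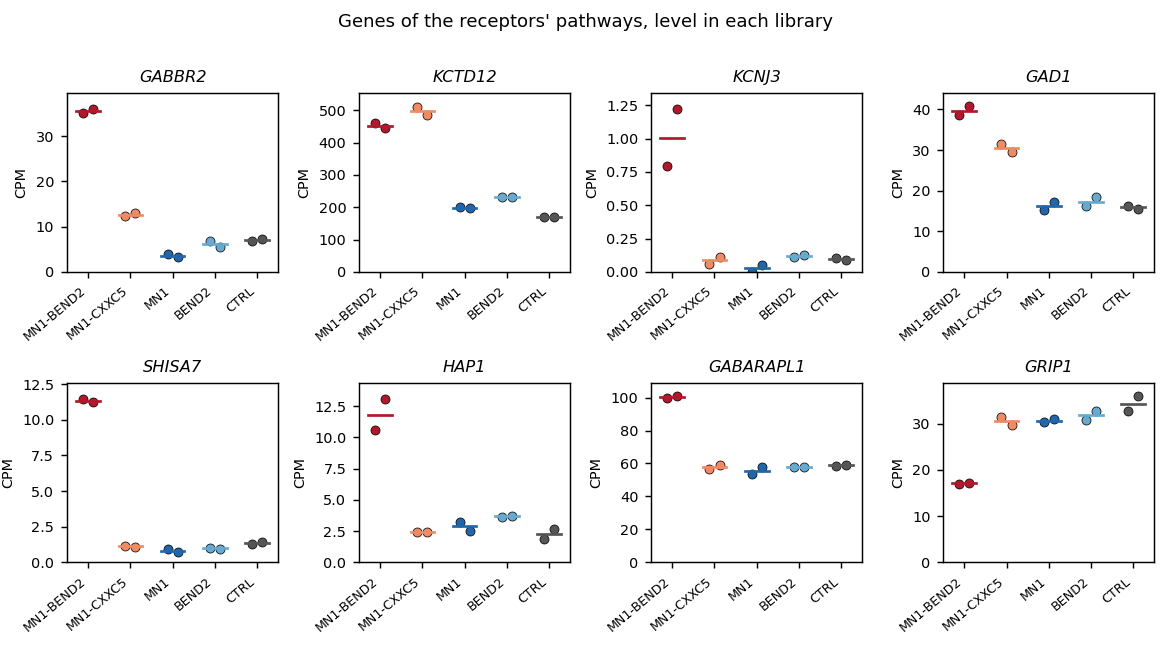
Level in CPM (vertical axes, from 0) of 8 genes of the receptors' pathways by group. Points are the 2 libraries of a group and lines their mean; GABBR2, KCNJ3, SHISA7, HAP1 and GABARAPL1 are highest in MN1-BEND2 cells, KCTD12 and GAD1 are high in both fusion lines, and GRIP1 is lowest in MN1-BEND2 cells.

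The other pathway lists held genes called in both directions in MN1-BEND2 against CTRL cells, beside 26.7% higher and 25.2% lower among all tested genes. Of 12 tested auxiliary subunits of AMPA and kainate receptors 4 were higher and 4 lower (median 0.14). SHISA7, known in mouse neurons also as an auxiliary subunit of GABA-A receptors, read 11.4 and 11.2 CPM in MN1-BEND2 against 1.30 and 1.45 CPM in CTRL libraries, with the 6 other libraries at 0.696 to 1.18 CPM (3.03 ± 0.16; adjusted p = 1.95e-08). NETO2, a kainate receptor partner, was 0.83 ± 0.05 higher, and it was also higher in MN1-CXXC5 than in CTRL cells (0.82 ± 0.05). Smaller rises of NETO2 were called in MN1 (0.471 ± 0.046) and BEND2 cells (0.186 ± 0.046). CNIH1, a cargo receptor of the cornichon family, was lower (-0.37 ± 0.03). Of 15 tested GABA-A trafficking factors 7 were higher and 5 lower (median 0.27): HAP1, which returns receptors to the surface, read 10.6 and 13.1 CPM in MN1-BEND2 against 1.88 and 2.65 CPM in CTRL libraries (2.37 ± 0.18), ZDHHC3, a palmitoyltransferase, changed by 0.85 ± 0.05 and GABARAPL1 by 0.77 ± 0.04. Of 25 tested postsynaptic scaffolds 5 were higher and 11 lower (median -0.01). GRIP1, which binds AMPA receptors, read 17.0 and 17.2 CPM in MN1-BEND2 against 32.7 and 35.9 CPM in CTRL libraries (-1.005 ± 0.062), while the adhesion protein gene NLGN1 (0.79 ± 0.05) and HOMER1, a partner of metabotropic receptors (0.41 ± 0.04), were higher. Leaving out MN1-BEND2 replicate 2 brought the scaffolds called to 9, and DESeq2 to 8.

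For the transmitters themselves, 4 of 13 tested genes of synthesis and breakdown were higher and 4 lower (median 0.07), beside the same 26.7% and 25.2% over all genes. GAD1, which makes GABA, read 38.6 and 40.8 CPM in MN1-BEND2 and 31.5 and 29.4 CPM in MN1-CXXC5 libraries against 16.2 and 15.6 CPM in CTRL libraries (1.33 ± 0.07 and 0.94 ± 0.08), and ABAT, which breaks GABA down, read 8.83 and 9.51 CPM in MN1-BEND2 against 16.5 and 15.6 CPM in CTRL libraries (-0.80 ± 0.09). Both MN1-BEND2 libraries lay outside the range of CTRL in each. GLUL, glutamine synthetase, changed by 0.64 ± 0.03. It read 688 and 696 CPM in MN1-BEND2 and 713 and 741 CPM in MN1-CXXC5 libraries against 442 and 443 CPM in CTRL libraries. Of 11 tested transporters 5 were higher and 2 lower (median 0.35), and without 2 that passed the filter only through MN1-BEND2 cells 3 were higher and 2 lower of 9 (median 0.16). Among the transporters were the chloride importer gene SLC12A2 at 0.61 ± 0.04, the glycine transporter gene SLC6A9 at -0.93 ± 0.06 and the glutamate transporter gene SLC1A3 at -0.49 ± 0.03. Of 12 tested genes of other ligand-gated channels 2 were higher, the nicotinic subunit genes CHRNA3 (1.46 ± 0.14) and CHRNB1 (0.69 ± 0.10), and 6 lower, among them the ATP receptor gene P2RX4 (-0.52 ± 0.09; list median -0.51). The genes called in the synthesis list were 5 without MN1-BEND2 replicate 1, MN1-BEND2 replicate 2, CTRL replicate 1 or the salivary libraries and with DESeq2. Those of the transporters were 3 and those of the other channels 5 without CTRL replicate 2, and 3 and 4 with DESeq2.

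Markers of neural cell types were measured beside these genes. Among all tested genes 26.7% were higher and 25.2% lower in MN1-BEND2 against CTRL cells, the background for the marker counts below. The 12 pan-neuronal markers summed to 519.5 and 559 CPM in MN1-BEND2 libraries, 518.5 and 581 in MN1-CXXC5, 178 and 195 in MN1, 345 and 360 in BEND2, and 356 and 386 CPM in CTRL libraries, most of it from NEFL. DCX, STMN2 and ELAVL4 were at 0.237 CPM or less in every library. Of the 6 tested pan-neuronal markers 1 was higher (0.59) and 2 lower (-0.48 and -1.67) in MN1-BEND2 against CTRL cells, in log2 changes. Astrocyte markers summed to 970 and 972 CPM in MN1-BEND2 libraries, 952 and 977 in MN1-CXXC5, 668 and 655 in MN1, 761.5 and 752 in BEND2, and 685 and 683 CPM in CTRL libraries, most of it from GLUL. In MN1-BEND2 against CTRL cells 4 were higher (0.43 to 1.24) and 2 lower (-0.37 and -0.49) of 10 tested. GFAP was at 0.592 to 1.63 CPM over all libraries. Oligodendrocyte lineage markers summed to 82.7 and 78.4 CPM in MN1-BEND2 against 60.5 and 58.0 CPM in CTRL libraries, with 3 higher (0.29 to 2.65) of 6 tested and MOG at 0.0813 CPM or less. Their part in the receptor results was not tested.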

How the data were processed

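The authors deposited 1 table of whole-number read counts per gene for the 10 libraries, with no normalization. The submitters' processing notes list featureCounts 2.0.0, HISAT2 and SAMtools 1.0.1 and the build GRCh38, per the labels. How reads were assigned (strand, overlaps, annotation) is not given in the sources used here. The 45 gene identifiers with a second line had their lines summed, and GENCODE v29 supplied positions and exon lengths.

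Counts were tested with edgeR 4.0.16 (R 4.3.3; TMM, filterByExpr by group, quasi-likelihood F-test, Benjamini-Hochberg over 18127 genes). A single model over the 10 libraries had group as its factor and 5 residual degrees of freedom. The script was tested on simulated counts. Alternatives included DESeq2 1.42.0, other scalings and filters, GC and length offsets, a replicate block, and leaving out libraries. Replicates correlated at 0.9908 to 0.9933 over genes and differed by more than counting noise. The members and lists were chosen with earlier results of these data known. Named are receptor genes called in at least 1 of 8 comparisons with a mean of 0.5 CPM or more in their highest group, and up to 3 genes per list by smallest adjusted p in MN1-BEND2 against CTRL; the remaining receptor genes are given by range or count, and a few genes that the rule takes are not reported here. Count ratios have exact binomial intervals on TMM-scaled depth.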

Additional observations from a re-analysis of the deposited data

How the results depend on the processing

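Of 71 receptor gene calls in the 8 comparisons, 39 held under every alternative that gave an adjusted p and 32 ended under at least 1. The 39 include every call of GABRA2, GABRB2 and GRIN2A, which passed the filter only through MN1-BEND2 cells. The 21 pathway genes named above kept their call in MN1-BEND2 against CTRL cells throughout, and KCNJ3 among them also passed the filter only through MN1-BEND2 cells. GRIN2D, higher in MN1-BEND2 than in MN1-CXXC5 cells, turned to -0.314 with GC and length offsets and to -0.310 with a replicate block and those offsets; the cause was not tested. With DESeq2 the receptor genes called were 6 in MN1-BEND2, 1 in MN1-CXXC5, 3 in MN1 and 0 in BEND2 against CTRL cells, 7 in MN1-BEND2 against BEND2 and 6 in MN1-BEND2 against MN1-CXXC5 cells. Over all genes DESeq2 called 6427 in MN1-BEND2, 4984 in MN1-CXXC5, 4862 in MN1 and 861 in BEND2 against CTRL cells. It called 5343 and 4832 in MN1-BEND2 against MN1 and BEND2 cells. DESeq2 left many of these low genes without an adjusted p. The fit of MN1 and CTRL alone called 5 receptor genes, against 8 in the model of all groups. This drop was not set against a background of all genes. Without the 2 libraries with salivary transcripts 3 were called in MN1-CXXC5, 4 in MN1 and 0 in BEND2 against CTRL cells, with 1285 of all genes in the last.

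Leaving out 1 library at a time, receptor genes called against CTRL were 9 to 13 in MN1-BEND2, 3 to 6 in MN1-CXXC5, 4 to 7 in MN1 and 0 to 1 in BEND2 cells, and 8 to 14 in MN1-BEND2 against MN1-CXXC5 cells. All genes called in BEND2 against CTRL cells were 1077 to 2583, against 2569 with all libraries, and 1612 with GC and length offsets. With all libraries, all genes called against CTRL were 9416 in MN1-BEND2, 8033 in MN1-CXXC5 and 7786 in MN1 cells. In MN1-BEND2 against MN1-CXXC5 cells they were 10624. These numbers of all genes also varied when 1 library was left out. The ranges of receptor genes therefore do not compare the lines. Libraries with the same replicate number deviated together (r from 0.125 to 0.290 over the 8 comparisons), and the salivary transcript ZG16B read 0.110 to 26.1 CPM in the 5 replicate 1 libraries and at most 0.0856 CPM in the replicate 2 libraries. No label ties the numbers, so that the samples were not treated as paired; what replicate 1 libraries share was not tested. The replicate block ended none of the 71 receptor gene calls, and with it the genes called in BEND2 against CTRL cells were 4159.

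Depth limits the low genes: the 25 untested receptor genes had at most 11 counts in a library, so differences among them were not detectable.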
